A study of Mus musculus with 12 samples.

Results

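A set of 10 genes of target-cell killing, 7 of which passed a filter on detection, were followed across 3 sorted subsets of CD4 T cells from the lining of the mouse small intestine. They are the granzymes Gzma, Gzmb, Gzmc, Gzmk and Gzmm, the pore protein gene Prf1, the granule genes Nkg7 and Srgn, and the death ligands Fasl and Tnfsf10. Members were taken by name, as every probe whose gene name in the deposited intensity table equals a member, ignoring case. Of the 10 genes, 9 had a probe, and they had 11 probes among the 25697 of the table, with 2 each for Prf1 and Srgn. No probe carried the name Gzma, which is not analysed here. Of 10612 genes tested in all, 7 were members, since Gzmc and Gzmm did not pass the filter.

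The study sorted intraepithelial lymphocytes by ThPOK, the transcription factor that holds CD4 T cells in the helper lineage, and by surface CD8a. ThPOK was read from a green fluorescent protein reporter in mice of the strain B6-ThPOK-GFP reporter, 10 to 12 weeks old. The subsets are THPOK-CD8a+ (called CD8a+ here), THPOK-CD8a- (CD8a-) and THPOK+CD8a- (ThPOK+). They came from RAG-/- recipients, which make no T or B cells of their own, into which naive CD4 T cells from reporter mice were transferred to model colitis (TR), or from reporter mice with no such treatment (WT). All groups carry the reporter. Each of the 6 groups had 2 Illumina MouseRef-8 BeadArrays, labelled replicates 1 and 2. Nothing in the labels says that replicates came from separate animals, so p-values measure how far these samples differ, which may be technical spread.

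Cytotoxic lymphocytes kill by 2 routes. In granule killing, granules held together by the proteoglycan serglycin (Srgn) release perforin (Prf1), which makes pores, and granzymes, which are serine proteases that enter the target. In death-receptor killing, ligands of the TNF family on the killer's surface, Fas ligand (Fasl) and TRAIL (Tnfsf10), bind death receptors and start caspases. Gut intraepithelial lymphocytes are known for granules rich in these proteins, whereas helper CD4 T cells usually hold few of them.

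The 250 bases before the start are shown for Gzmb, Gzmk, Nkg7 and Fasl. These are the members for which every array of both ThPOK-negative subsets lay above every ThPOK+ array. The sequences were taken from the RefSeq promoter table of build GRCm38.p6 and read 5′ to 3′ on the strand of the gene. Capitals mark matches to TGTGGT (a core bound by Runx factors), AGGTGT (a core bound by T-box factors such as T-bet) or TGANTCA (AP-1), each searched on both strands.
Gzmb, chr14:56262335-56262584, minus strand: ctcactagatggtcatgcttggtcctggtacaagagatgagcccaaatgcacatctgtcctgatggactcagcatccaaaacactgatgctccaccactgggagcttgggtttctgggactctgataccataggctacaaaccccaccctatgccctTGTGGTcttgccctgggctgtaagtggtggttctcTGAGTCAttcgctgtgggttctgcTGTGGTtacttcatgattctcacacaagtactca
Gzmk, chr13:113180966-113181215, minus strand: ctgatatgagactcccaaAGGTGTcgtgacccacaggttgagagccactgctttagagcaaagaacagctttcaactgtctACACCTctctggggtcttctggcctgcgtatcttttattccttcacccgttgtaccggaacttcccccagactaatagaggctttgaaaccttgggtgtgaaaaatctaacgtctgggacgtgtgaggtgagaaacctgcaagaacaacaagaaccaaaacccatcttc
Nkg7, chr7:43436888-43437137, plus strand: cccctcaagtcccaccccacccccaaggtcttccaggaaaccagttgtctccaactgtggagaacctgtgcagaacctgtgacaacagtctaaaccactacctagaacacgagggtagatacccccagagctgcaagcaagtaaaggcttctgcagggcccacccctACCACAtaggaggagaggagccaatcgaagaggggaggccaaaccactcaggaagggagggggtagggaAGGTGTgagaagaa
Fasl, chr1:161788496-161788745, minus strand: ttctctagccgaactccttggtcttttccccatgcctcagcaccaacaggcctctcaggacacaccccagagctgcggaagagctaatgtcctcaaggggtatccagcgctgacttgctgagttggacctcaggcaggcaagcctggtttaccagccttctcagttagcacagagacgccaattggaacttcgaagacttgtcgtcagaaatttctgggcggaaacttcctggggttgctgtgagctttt
The Gzmb window held Runx matches beginning 93 and 34 bases before the start and an AP-1 match beginning at 58. Gzmk held T-box matches at 232 and 169 bases, on opposite strands. Nkg7 held a Runx match at 83 bases and a T-box match at 14 bases, and Fasl held none of the 3 motifs. Among the 12 promoters listed for the 10 members, 7 held the Runx letters, 4 the T-box letters and 1 the AP-1 letters. Of 32851 mouse promoters taken over the same 250 bases, 14% held the Runx, 11.8% the T-box and 6.75% the AP-1 letters. No motif overlapped another in the 4 sequences printed. These matches describe letters and not bound sites.

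Signals differed by replicate number over the whole series. Arrays of replicate 1 had a median raw signal between 113.6 and 130.8 and detected 12024 to 13091 probes at p under 0.05. Arrays of replicate 2 had a median between 206.7 and 246.2 and detected 6721 to 8195. Both numbers hold all 6 groups. Which host the replicate 1 arrays came from is given in opposite ways by the 2 deposited tables. Comparisons of subsets that pool the hosts are untouched by this and come first, and values by host use the names of the intensity table. T cell markers were present in every subset: 7 of 7 were detected, and their mean log2 signal was 9.70 to 10.03 in CD8a+, 9.76 to 10.14 in CD8a- and 9.65 to 10.08 in ThPOK+ cells. The mean hides Cd2, detected on 11 of 12 arrays, which differed by -1.70 between CD8a+ and ThPOK+ cells (limma, adjusted p = 0.107). The other markers of this list differed by -0.11 (Lck) to 0.45 (Cd3g). Cd8a transcript averaged 7.97 ± 0.45 in CD8a+, 7.82 ± 0.42 in CD8a- and 7.53 ± 0.36 in ThPOK+ cells (SD, n = 4 arrays each), so it did not check the sort. Signals below are log2 of background-corrected, quantile-normalized intensity. A level is compared for the same probe between subsets only.

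In CD8a+ cells, 4 of the 7 tested members were higher than in ThPOK+ cells and none was lower. Gzmb, Gzmk, Nkg7 and Fasl rose 2.30-fold to 6.43-fold, while the brighter probes of perforin and serglycin, detected well above the limit in ThPOK+ cells, had intervals that spanned 0. Over all genes the same comparison called 0.254% higher and 0.311% lower. The median difference over the 7 members was 1.28 on the log2 scale, against 0.0034 over all 10612 genes. Of the 7 members, 5 reached an unadjusted p under 0.05, as did 1039 of all 10612 genes. In bulk RNA, a change in the share of expressing cells and a change in RNA per cell cannot be told apart.

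**Figure D1:**
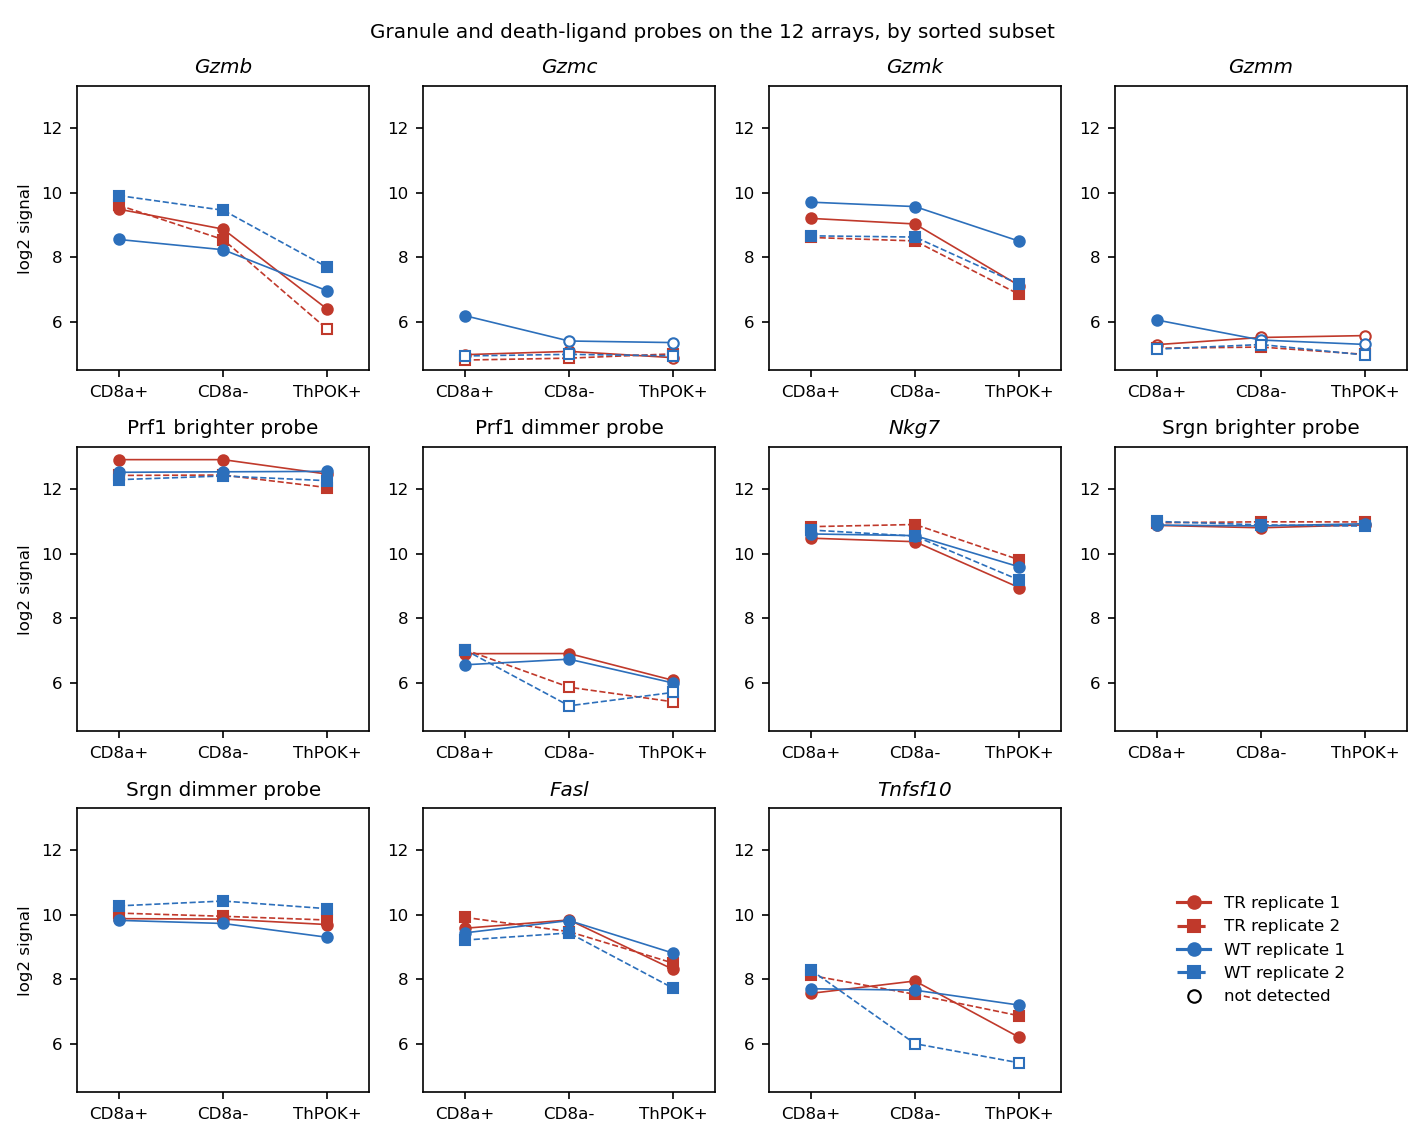
Log2 signal (y axis) of each of the 11 probes in CD8a+, CD8a- and ThPOK+ cells, with a line for each set of 3 arrays sharing host and replicate number. Open symbols were not detected. Gzmb, Gzmk, Nkg7 and Fasl are higher in both ThPOK-negative subsets than in ThPOK+ cells in all 4 sets, whereas the brighter Prf1 and Srgn probes run nearly flat and Gzmc and Gzmm lie at the detection limit.

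Gzmb encodes granzyme B, a protease that cleaves caspases inside the target. In CD8a+ cells its signal was 9.49 and 9.61 in TR and 8.55 and 9.91 in WT hosts (replicates 1 and 2). ThPOK+ cells read 6.39 and 5.77 in TR and 6.96 and 7.69 in WT hosts, and the 5.77 array was below detection. Every CD8a+ array lay above every ThPOK+ array, as held for 1.57% of all genes tested (1.48% did not overlap in the other direction). The difference was 2.68 ± 0.32 (SE), with a 95% interval of 1.97 to 3.40, a 6.43-fold rise (limma, adjusted p = 0.0118). It was 3.10 and 3.84 within the TR sets and 1.59 and 2.22 within the WT sets. The ThPOK+ arrays lay near background, and the size of the difference moved with the background correction: with none it was 1.705, still called (limma, adjusted p = 0.00174).

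Gzmk encodes granzyme K, a tryptase-like granzyme. It read 9.20 and 8.61 in TR and 9.71 and 8.66 in WT CD8a+ cells. The ThPOK+ arrays read 7.13 and 6.85 in TR and 8.50 and 7.17 in WT hosts. The groups did not overlap, although WT replicate 1 of ThPOK+ cells, at 8.50, came close to the lowest CD8a+ array, at 8.61. Gzmk rose by 1.64 ± 0.17 (SE), or 3.11-fold (95% interval 1.24 to 2.03 on the log2 scale, limma adjusted p = 0.0108). Within sets the difference was 1.21 to 2.08. The replicate 2 ThPOK+ arrays lay near background, 0.19 (TR) and 0.25 (WT) log2 units above the lowest detected signal of their own array. The size of the difference moved with the background correction: with none it was 1.07 overall (limma, adjusted p = 0.00174).

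Gzmc and Gzmm encode granzymes C and M. Each was detected on 1 of 12 arrays, in both cases WT CD8a+ replicate 1, where Gzmc read 6.19 and Gzmm 6.06. On the other 11 arrays Gzmc lay between 4.82 and 5.41 and Gzmm between 4.98 and 5.58, not above background. With no filter on detection, the CD8a+ minus ThPOK+ difference was 0.18 ± 0.17 (SE) for Gzmc (limma, adjusted p = 0.871) and 0.21 ± 0.16 for Gzmm (adjusted p = 0.836). These dim signals bound nothing about transcripts below the detection limit.

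Perforin was measured by 2 probes. The brighter Prf1 probe read 12.91 and 12.42 in TR and 12.52 and 12.29 in WT CD8a+ cells. In ThPOK+ cells it read 12.46 and 12.04 in TR and 12.55 and 12.26 in WT hosts. The groups overlapped, and the ThPOK+ arrays stood 5.34 to 7.03 log2 units above the lowest detected signal of their own array. The difference was 0.21 ± 0.15 (SE, 95% interval -0.13 to 0.54, limma adjusted p = 0.714), 0.45 and 0.38 in the TR sets and -0.03 and 0.03 in the WT sets. Raw signal of this probe was 3693 to 9951, below the highest raw signal on an array, which was 25457 to 52246, so the probe was not at the top of the scale.

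The dimmer Prf1 probe gave another picture. It read 6.91, 7.03, 6.56 and 7.02 in CD8a+ cells (TR replicates 1 and 2, then WT replicates 1 and 2), all detected. In ThPOK+ cells it read 6.08, 5.41, 6.0 and 5.71 in the same order, and both replicate 2 arrays were below detection. The groups did not overlap. In a fit of all 14635 probes, its difference was 1.08 ± 0.30 (SE, 95% interval 0.40 to 1.76), which missed the threshold (limma, adjusted p = 0.222). The 2 probes of Prf1 thus disagree on the size of the difference, and neither was called.

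Nkg7 encodes a membrane protein of cytotoxic granules that takes part in their release. Its signal was 10.48 and 10.84 in TR and 10.61 and 10.73 in WT CD8a+ cells. ThPOK+ cells read 8.95 and 9.81 in TR and 9.59 and 9.18 in WT hosts. All 12 arrays detected it, and the 4 CD8a+ arrays lay close together and above all ThPOK+ arrays. Nkg7 rose by 1.28 ± 0.15 (SE), or 2.43-fold (95% interval 0.93 to 1.63, limma adjusted p = 0.0122).

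Srgn is the serglycin gene. Its brighter probe averaged 10.93 ± 0.06 in CD8a+ cells and 10.91 ± 0.05 in ThPOK+ cells (SD, n = 4 arrays each), with a difference of 0.02 ± 0.13 (SE, 95% interval -0.28 to 0.31, limma adjusted p = 0.98). As a ratio of CD8a+ to ThPOK+ cells, that interval is 0.826 to 1.24. The dimmer probe averaged 10.01 ± 0.20 in CD8a+ and 9.75 ± 0.37 in ThPOK+ cells, and its difference, 0.25 ± 0.15 (SE), was not called (adjusted p = 0.644) although it was positive in 4 of 4 sets.

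Among the death ligands, Fasl read 9.58 and 9.92 in TR and 9.44 and 9.21 in WT CD8a+ cells. It read 8.30 and 8.50 in TR and 8.81 and 7.72 in WT ThPOK+ cells. No ThPOK+ array reached the lowest CD8a+ array. Fasl rose by 1.20 ± 0.20 (SE), or 2.30-fold (95% interval 0.75 to 1.65, limma adjusted p = 0.0362), and its difference within a set was 0.63 to 1.49.

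Tnfsf10, the TRAIL gene, read 7.56 and 8.12 in TR and 7.71 and 8.29 in WT CD8a+ cells. The ThPOK+ arrays read 6.20 and 6.87 in TR and 7.20 and 5.42 in WT hosts, the last below detection. The groups did not overlap, but the difference ranged within sets from 0.51 to 2.87. At 1.5 ± 0.40 (SE, 95% interval 0.58 to 2.41) it did not pass the threshold over all genes (limma, unadjusted p = 0.00479, adjusted p = 0.192).

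**Figure D2:**
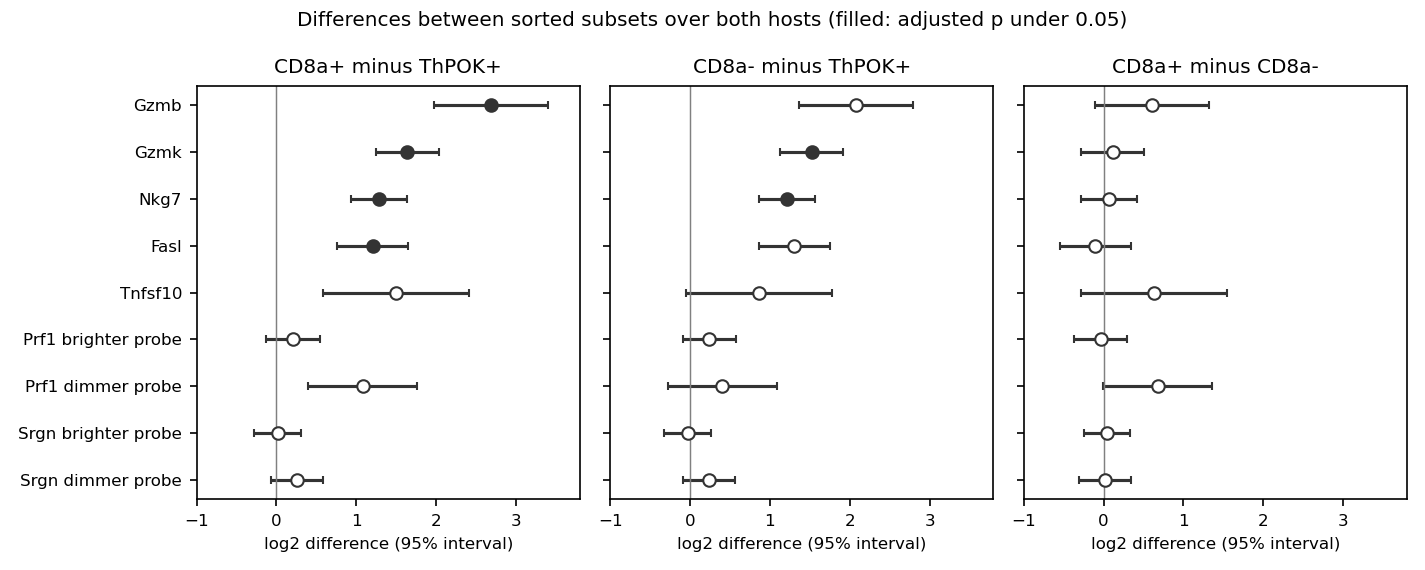
Log2 difference (x axis) with its 95% interval for each tested member and probe, for CD8a+ minus ThPOK+, CD8a- minus ThPOK+ and CD8a+ minus CD8a- cells. Filled points passed an adjusted p of 0.05. Gzmb, Gzmk, Nkg7 and Fasl lie at 1.20 or more in the first 2 panels, and every interval of the tested genes in the last panel includes 0.

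These calls rest on few arrays. Without the block for the set of 3 arrays the differences are equal by construction, but none of the 4 genes was called (limma, adjusted p from 0.0816 for Gzmb to 0.357 for Gzmk). With the arrays of replicate 1 alone the differences were 2.34 for Gzmb, 1.64 for Gzmk, 1.27 for Nkg7 and 0.95 for Fasl, and with those of replicate 2 alone 3.03, 1.63, 1.29 and 1.45 in the same order, with none of these 4 genes called in either. Leaving out each of the 12 arrays in turn, Gzmb and Gzmk were called in 10 of 12 fits, Nkg7 in 9 and Fasl in 3. No member was called without TR CD8a+ replicate 1 or without TR ThPOK+ replicate 1, and 2 were called without WT ThPOK+ replicate 2. The differences themselves moved little, and stayed between 2.38 and 3.0 for Gzmb, 1.5 and 1.78 for Gzmk, 1.20 and 1.36 for Nkg7 and 1.08 and 1.35 for Fasl.

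**Figure D3:**
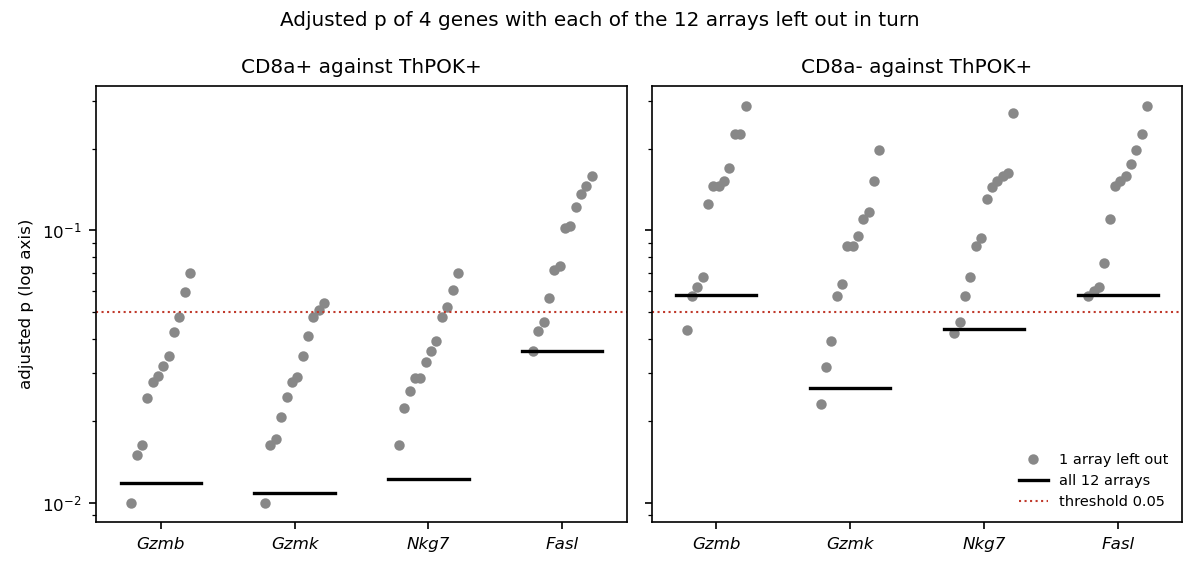
Adjusted p (y axis, log scale) of Gzmb, Gzmk, Nkg7 and Fasl with each of the 12 arrays left out (grey points, sorted by p) and with all 12 (black line), for CD8a+ against ThPOK+ cells on the left and CD8a- against ThPOK+ cells on the right. Most points of Gzmb, Gzmk and Nkg7 lie under the dotted threshold of 0.05 on the left, whereas most points of all 4 genes lie above it on the right.

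Transcripts of other cells differed between arrays. The mean log2 signal of 8 Paneth and goblet cell markers was 5.20 to 8.93 in CD8a+, 5.29 to 5.80 in CD8a- and 5.64 to 8.92 in ThPOK+ cells, and was highest on WT CD8a+ replicate 2 (8.93), WT ThPOK+ replicate 1 (8.92) and WT ThPOK+ replicate 2 (7.52). For 9 epithelial markers the ranges were 6.11 to 9.12, 6.16 to 7.15 and 6.19 to 9.33 in the same order of subsets. The 3 arrays of highest Paneth and goblet signal include both WT ThPOK+ arrays. A fit without them, chosen after seeing the data, thus keeps ThPOK+ arrays labelled TR alone. With all arrays, Gzmb differed within sets by 3.10 and 3.84 in TR and by 1.59 and 2.22 in WT hosts. In the fit without the 3 arrays, CD8a+ and ThPOK+ cells differed by 3.38 ± 0.25 for Gzmb and 1.92 ± 0.19 for Gzmk (SE). The difference was 1.28 ± 0.20 for Nkg7 and 1.27 ± 0.25 for Fasl. Gzmb and Gzmk stayed called in that fit (limma, adjusted p = 0.0271 and 0.0355), and Nkg7 and Fasl did not (0.108 and 0.156).

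Natural killer cells express granzymes and perforin too. The mean log2 signal of 8 of their markers was 6.12 to 6.51 in CD8a+, 5.68 to 6.27 in CD8a- and 5.90 to 6.22 in ThPOK+ cells. Raw signal summed over these 8 genes was 1656 to 2960, 1395 to 2431 and 1393 to 2239 in the same order. Ncr1, the gene of the receptor NKp46, and Klrb1a were detected on 0 of 12 arrays. Those detected on most arrays were Tyrobp (12 of 12), Itga2 (11 of 12) and Klrb1c (7 of 12). Tyrobp is an adaptor also used by myeloid cells, and Itga2 is an integrin also found on activated T cells. Between CD8a+ and ThPOK+ cells, Tyrobp differed by 0.80 (limma, adjusted p = 0.712) and Itga2 by 1.21 (adjusted p = 0.41). Klrb1c ran the other way, at -0.20 (adjusted p = 0.922). Cd8b1, of conventional CD8 T cells, was detected on 2 of 4 CD8a+, 1 of 4 CD8a- and 2 of 4 ThPOK+ arrays, at a difference of 0.94 (adjusted p = 0.436). Over Cd8b1 and Sox13, a factor of gamma-delta T cells that no array detected, the mean was 5.37 to 6.36 in CD8a+, 5.27 to 5.55 in CD8a- and 5.15 to 5.56 in ThPOK+ cells. The part of such cells in the granule signal was not tested. Of 7 mast cell markers, 4 were never detected, among them the chymase genes Mcpt1, Mcpt2 and Mcpt4. In CD8a+ cells 0 of the 7 were detected, against 2 in CD8a- and 2 in ThPOK+ cells. Hdc, detected on 7 of 12 arrays, differed by -1.52 between CD8a+ and ThPOK+ cells (limma, adjusted p = 0.105). Fcer1a, detected on 2, differed by 0.16 (adjusted p = 0.899). The means of the 7 markers were 5.13 to 5.54, 5.24 to 5.98 and 5.43 to 5.62 in the same order of subsets. For 7 B and plasma cell markers they were 5.24 to 6.21, 5.26 to 5.85 and 5.21 to 6.51, and for 9 myeloid markers 5.15 to 5.55, 5.29 to 5.36 and 5.25 to 5.68.

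Cells that lack both ThPOK and surface CD8a were compared next. In CD8a- cells, Gzmk rose by 1.52 ± 0.17 (SE, 2.87-fold, limma adjusted p = 0.0263) and Nkg7 by 1.21 ± 0.15 (2.31-fold, adjusted p = 0.0435) relative to ThPOK+ cells. No tested member was called lower. So 2 of 7 members were called higher, whereas the comparison called 0.0565% of all genes, 0.0283% higher and 0.0283% lower. The median difference was 1.21 over the members and 0.0054 over all genes. Of the 7 members, 4 reached an unadjusted p under 0.05, as did 918 of all 10612 genes.

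For Gzmk, CD8a- cells read 9.03 and 8.51 in TR and 9.57 and 8.63 in WT hosts, all above the 4 ThPOK+ arrays. Nkg7 read 10.37 and 10.90 in TR and 10.56 and 10.54 in WT CD8a- cells, again above them all. Neither call held in most fits with 1 array left out, since Gzmk was called in 3 of 12 and Nkg7 in 2 of 12. No member was called without the set block (Gzmk adjusted p = 0.743, Nkg7 0.529), within either replicate number, or without the 3 arrays of high Paneth and goblet signal.

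Gzmb and Fasl lay just above the threshold in CD8a- cells. Gzmb read 8.87 and 8.55 in TR and 8.23 and 9.46 in WT CD8a- cells, each array above every ThPOK+ array. Its difference was 2.07 ± 0.32 (SE, 95% interval 1.36 to 2.79, limma adjusted p = 0.0577). Fasl read 9.84 and 9.47 in TR and 9.82 and 9.43 in WT CD8a- cells. Its difference was 1.31 ± 0.20 (95% interval 0.86 to 1.75, adjusted p = 0.0577). Both were called when no background was subtracted, with an offset of 50, with median scaling or with probes detected on at least 6 arrays. Neither was called without the set block (adjusted p = 0.499 for each) or with the replicate number alone as the block (0.125 for Gzmb and 0.115 for Fasl). With 1 array left out, Gzmb was called in 1 of 12 fits and Fasl in 0, with adjusted p up to 0.287. Gzmb, Gzmk, Nkg7 and Fasl were the members whose CD8a- arrays all exceeded all ThPOK+ arrays, a pattern found upward in 1.38% and downward in 1.3% of all genes.

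The other members did not separate CD8a- from ThPOK+ cells. Tnfsf10 read 7.95 and 7.54 in TR and 7.66 and 6.01 in WT CD8a- cells, the last below detection, and overlapped ThPOK+ cells. Its difference was 0.87 ± 0.40 (SE, 95% interval -0.05 to 1.78, limma adjusted p = 0.598). The brighter Prf1 probe read 12.91 and 12.43 in TR and 12.53 and 12.40 in WT CD8a- cells, with a difference of 0.24 ± 0.15 (95% interval -0.09 to 0.57, adjusted p = 0.68). The dimmer Prf1 probe read 6.91, 5.87, 6.74 and 5.29 in the order of TR and then WT replicates, with both replicate 2 arrays below detection, and differed by 0.40 ± 0.30 (adjusted p = 0.762). Srgn differed by -0.03 ± 0.13 on its brighter probe (95% interval -0.32 to 0.26, adjusted p = 0.973) and by 0.24 ± 0.15 on its dimmer probe (adjusted p = 0.702).

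Between the subsets that both lack ThPOK, no tested member differed past the threshold. The comparison of CD8a+ with CD8a- cells called 0% of the 10612 genes (limma). An unadjusted p under 0.05 was reached by 541 of them, none a member, which is near the share that this cutoff passes by chance. Gzmb was higher in CD8a+ cells within 4 of 4 sets, by 0.62 and 1.06 in TR and 0.32 and 0.45 in WT hosts. The subsets overlapped, and the difference of 0.61 ± 0.32 (SE, 95% interval -0.10 to 1.33, adjusted p = 0.895) allows up to a 2.51-fold excess in CD8a+ cells. Tnfsf10 differed by 0.63 ± 0.40 (95% interval -0.28 to 1.54, adjusted p = 0.895), and WT replicate 2, with a CD8a- array below detection, gave 2.28 of difference while the other sets gave -0.38 to 0.59.

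The remaining intervals were narrower. Gzmk differed by 0.11 (95% interval -0.28 to 0.51), Nkg7 by 0.07 (-0.28 to 0.42), Fasl by -0.10 (-0.55 to 0.34), Prf1 by -0.04 (-0.37 to 0.30) and Srgn by 0.04 (-0.25 to 0.34), with adjusted p of 0.95 or more (limma). As ratios of CD8a+ to CD8a- cells, these 5 intervals all lay between 0.682 and 1.42. The dimmer Prf1 probe differed by 0.68 ± 0.30 (adjusted p = 0.903), with both replicate 2 arrays of CD8a- cells below detection. The brighter Prf1 probe had the same value, 12.91, on both TR replicate 1 arrays because it held rank 15 on each and quantile normalization gives equal ranks equal values.

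What ThPOK+ cells already held can be read from how far each probe stood above the lowest detected signal of the same array. On their brighter probes Prf1 stood 5.34 to 7.03 and Srgn 3.94 to 5.41 above it on the log2 scale, and Nkg7 stood 2.27 to 4.08 above it. For Prf1 this depends on the probe, since the dimmer Prf1 probe lay -1.24 to 0.49 from the limit in ThPOK+ cells and was detected on 2 of 4 arrays. Fasl stood 0.81 to 3.30 and Gzmk 0.19 to 2.99 above it, and both were detected on 4 of 4 ThPOK+ arrays. Gzmb and Tnfsf10 were detected on 3 of 4, at -0.88 to 1.45 and -1.50 to 1.69 relative to the limit. These values say where each probe lay on its own arrays and do not order the genes by transcript level. Gzmc and Gzmm were below the limit on every ThPOK+ array.

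Several members varied together across arrays. After centring each set of 3 arrays on its mean, the Pearson correlation over 12 arrays was 0.97 between Gzmb and Gzmk, 0.98 between Gzmk and Nkg7, 0.95 between Nkg7 and Fasl, 0.91 between Gzmb and Fasl and 0.76 between Gzmb and Tnfsf10. The brighter Prf1 probe, although not called, had 0.84 with Gzmb, 0.84 with Gzmk and 0.77 with Fasl. Srgn had -0.03 with Gzmb. These values describe 12 arrays that share 4 sets and 3 subsets and carry no test. Centring within sets keeps the differences between subsets, so genes that differ alike between subsets correlate. The correlations thus repeat those differences and are not separate evidence, for Prf1 or for the other members. Among the other tested genes, the 5 most like Gzmb by this measure were Swap70 (r = 0.96), OTTMUSG00000005491 (0.96), LOC676420 (0.96), LOC100045268 (0.96) and Pelo (0.95). Swap70, which encodes a protein of actin and membrane dynamics, rose by 2.05 ± 0.24 (SE) in CD8a+ relative to ThPOK+ cells. It was picked for its likeness to Gzmb on these same 12 arrays, so this rise follows from the choice and is not a separate result.

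No effect of host on the members was detectable. The comparison of TR with WT hosts over all subsets called 0% of genes (limma). Of the 10612 genes, 483 had an unadjusted p under 0.05, none a member, which is again near the share that this cutoff passes by chance. Differences of the members ran from -0.48 ± 0.32 for Gzmk and -0.35 ± 0.32 for Gzmb to 0.33 ± 0.39 for Tnfsf10 (SE, adjusted p = 1 for each). The conflict over the host of replicate 1 bears on these values directly: with those hosts exchanged, Gzmk was 0.32 higher in TR hosts and Gzmb by -0.69. Gzmb had a CD8a+ minus ThPOK+ difference that was 1.56 ± 0.79 (SE, 95% interval -0.21 to 3.33) larger in TR than in WT hosts, which was not past the threshold (unadjusted p = 0.0774, adjusted p = 1), in a comparison that called 0% of genes. It was 0.06 with the hosts exchanged. Intervals this wide do not show that hosts act alike.

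Other genes of the same routes were read from 6 lists chosen with earlier results of these data known. Of the 5 other granzymes, Gzmd and Gzme were tested and neither was called. Gzme read 6.93, 8.36, 7.07 and 8.29 in CD8a+ cells (TR replicates 1 and 2, then WT), against 6.17, 5.84, 5.95 and 7.28 in ThPOK+ cells. Within each set it was higher in CD8a+ cells, although the groups overlapped, and the difference was 1.35 ± 0.28 (SE, limma adjusted p = 0.0808). Its other probe was detected on 0 of 12 arrays, and Gzmc, Gzmd, Gzme, Gzmf and Gzmg are closely similar neighbours that probes may not tell apart, so this signal is not assigned to Gzme with certainty. Gzmd differed by 0.07 (adjusted p = 0.931), and Gzmf, Gzmg and Gzmn were detected on no array.

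Genes that load, process or restrain granules were not called: 0 of 10 tested passed in CD8a+ against ThPOK+ cells, with a median difference of 0.19. Cst7, encoding cystatin F, which inhibits the cathepsins that activate granzymes, differed by 1.19 ± 0.23 (SE, limma adjusted p = 0.0609), and read 8.72, 9.46, 8.24 and 8.53 in CD8a+ cells against 7.03, 8.18, 7.77 and 7.21 in ThPOK+ cells. Those arrays did not overlap. Serpinb9, whose protein in the mouse inhibits granzyme B, differed by 0.92 ± 0.22 (adjusted p = 0.124). It was detected on 9 of 12 arrays, and not on WT replicate 2 of any subset. Serpinb1a, detected on 7 of 12 arrays, ran the other way, at -0.71 ± 0.28 (limma, adjusted p = 0.436). Ctsc at -0.28 and Lamp2 at -0.09 were lower too, and none of these was called. Of 11 tested genes of the exocytosis machinery 0 passed, with a median of -0.01. The largest were Sytl3 and Sytl2, synaptotagmin-like proteins that bind Rab27, at 0.99 ± 0.22 (adjusted p = 0.0949) and 0.45 ± 0.22 (adjusted p = 0.552), while Rab27a itself differed by -0.01 (adjusted p = 0.988) and Unc13d by -0.16 (0.916).

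The TNF-family list held genes that ran the other way. Of 8 tested ligands and receptors, 0 were called higher and 1 lower in CD8a+ cells, with a median difference of -0.12. That gene was Tnfsf8, the ligand of CD30, which read 7.18, 5.40, 6.40 and 8.24 in CD8a+ cells (TR replicates 1 and 2, then WT) and 9.5, 9.15, 8.25 and 9.75 in ThPOK+ cells. The TR replicate 2 array of CD8a+ cells was below detection, and the highest CD8a+ array, at 8.24, was just under the lowest ThPOK+ array, at 8.25. Tnfsf8 fell by 2.35 on the log2 scale (SE 0.35, limma adjusted p = 0.0279). The call held in 4 of 12 fits with 1 array left out (adjusted p from 0.0324 to 0.128), and was lost without the set block (0.677). CD8a- cells read 7.15, 6.38, 5.42 and 8.29, with a difference of -2.35 that lay just above the threshold (limma, adjusted p = 0.0577). The CD8a- arrays at 6.38 and 5.42 were below detection, so the size of this difference depends on background. The CD8a- array at 8.29 lay above the lowest ThPOK+ array, at 8.25, so these groups overlapped. Between CD8a+ and ThPOK+ cells, tumour necrosis factor, Tnf, differed by 0.37 ± 0.23 (limma, adjusted p = 0.686). Fas, the receptor of Fas ligand, differed by 0.70 ± 0.25 (adjusted p = 0.357) and Tnfrsf1a by 0.85 ± 0.26 (adjusted p = 0.29). Besides Tnfsf8, Lta ran lower, by -0.97 ± 0.30 (adjusted p = 0.27), as did Tnfsf14 at -0.25 and Tnfrsf1b at -0.47, none of them called.

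Neither the signalling genes below death receptors nor the regulators of the programme were called. Of 7 tested signalling genes, 0 passed (median 0.16), and the smallest p values were those of Bid, at 0.28 ± 0.18 (SE, limma adjusted p = 0.688), and Casp8, the initiator caspase of death receptors, at 0.25 ± 0.19 (adjusted p = 0.743). Of 12 tested regulators, 0 passed (median -0.02). Tbx21, encoding T-bet, differed by 0.61 ± 0.20 (limma, adjusted p = 0.309), and Bhlhe40, a factor of cytokine expression in T cells, by -0.65 ± 0.13 (0.0715). The largest rise of the list was that of Zeb2, at 0.92 ± 0.32 (0.349). Eomes differed by 0.65 ± 0.41 (0.688) but was detected on 3 of 12 arrays only. In CD8a- against ThPOK+ cells and in CD8a+ against CD8a- cells, 0 genes of these 6 lists were called.

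**Figure D4:**
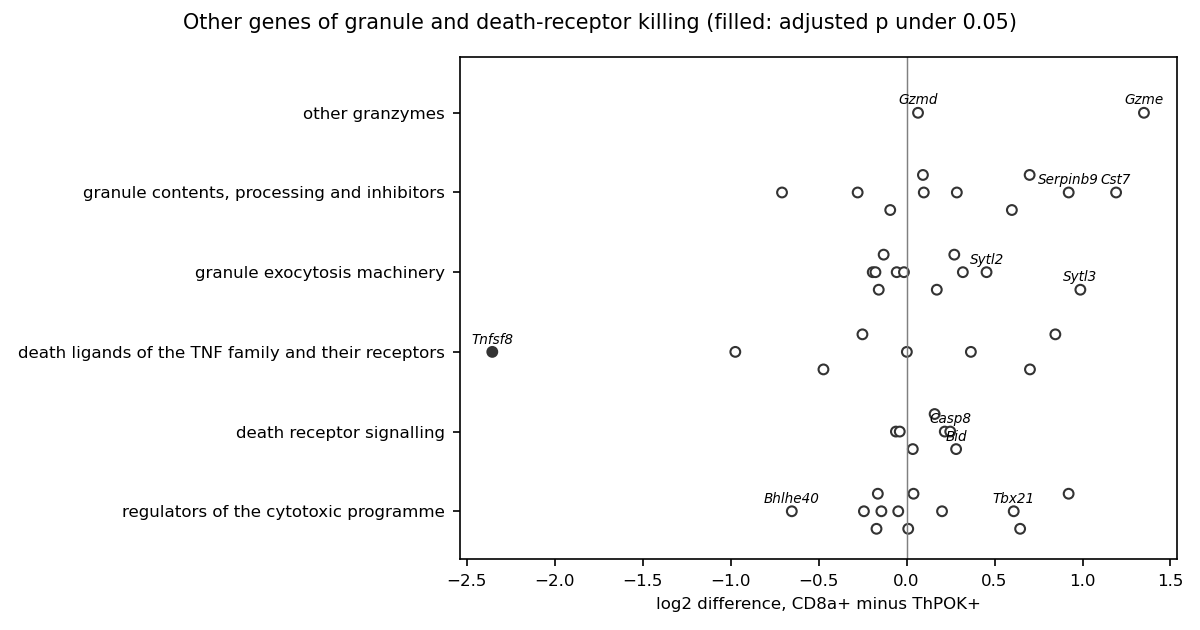
Log2 difference, CD8a+ minus ThPOK+ cells (x axis), of each tested gene in 6 lists of the granule and death-receptor routes (rows). The 1 filled point, Tnfsf8 at -2.35, passed an adjusted p of 0.05, and the open points lie between -0.97 and 1.35.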

How the data were processed

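Total RNA of 12 sorted samples was labelled as biotinylated cRNA, per the labels' protocols. The authors deposited mean bead intensities with no normalization, exported from GenomeStudio 1.0.6 per the file headers. Beside each intensity the authors deposited a detection score, a fraction read here as 1 minus the detection p-value, and a bead count, with the bead error. A second table the authors deposited holds log2 values. It was found to hold log2 intensities shifted per array and centred on each set's median. Column medians were 0, and it was used only to compare hosts. Within 1e-05, 2 sets equal those of the intensity table under the same label and 2, both of replicate 1, only under the other host. No array was moved.

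The software was limma 3.58.1 under R 4.3.3 (neqc, offset 16, quantile, log2). A probe was kept if 2 or more arrays detected it at p under 0.05 (14635), and the brightest probe stood for each gene. The bead error of detected member values was 2.26% to 8.47% of signal, beside which the number of arrays limits precision. Subsets were compared by limma on all 12 arrays with the set as a block, and hosts by 6 group means, each with 6 residual degrees of freedom, two-sided, Benjamini-Hochberg over all genes. Replicate numbers were taken as pairing samples because all 15 pairs of groups had correlated deviations (0.356 to 0.657). These pairs include groups of different hosts. They show a shift shared by replicate number and cannot show that the subsets of 1 set are paired. Calls with the replicate number alone as the block are given below. The labels name no shared animal or day. Members and lists were chosen with earlier results of these data known. Named are all members, list genes past the threshold or else the 2 with the smallest p, and the 5 genes most like Gzmb. Serpinb1a, Ctsc, Lamp2, Rab27a, Unc13d, Tnf, Fas, Lta, Tnfsf14, Tnfrsf1a, Tnfrsf1b, Eomes and Zeb2 were named after their values were seen. So were the markers Cd2, Lck, Cd3g, Klrb1c, Hdc and Fcer1a. In the death receptor signalling list, 1 gene is not reported here, and its counts leave it out. The fits were tested on simulated data.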

Additional observations from a re-analysis of the deposited data

Results flagged for a closer look

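On 1 array, WT CD8a+ replicate 1, granzyme C and granzyme M stood apart from the other CD8a+ arrays. Gzmc read 6.19 there and 4.99 on the next array, and Gzmm read 6.06 there and 5.30 on the next. In both the gap exceeded what is usual within a group of 4. This was the case in 2 of 33 groups of 4 arrays looked at, and chance gives it in about 1 of 20. It was also the 1 array of 12 that detected either gene.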

How the results depend on the processing

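The count of members called was 4 in CD8a+ against ThPOK+ cells. It was 0 with no replicate block, 0 with only the 8 arrays compared, 0 within replicate 1 and 0 within replicate 2. With 1 array left out it was 0 to 4. Without the 3 arrays of high Paneth and goblet signal (chosen after seeing the data) it was 2, with only ThPOK+ arrays labelled TR left. It was 3 with the replicate number alone as the block and 3 with no detection filter, where Fasl lost its call (adjusted p = 0.0604 and 0.055). In CD8a- against ThPOK+ cells the count was 2. It was 0 with no replicate block, 0 with the replicate number alone as the block, 0 with 8 arrays, 0 within either replicate and 0 without the 3 arrays, 1 with every probe tested, and 4 with no background correction, an offset of 50, median scaling or detection on at least 6 arrays. It was 0 to 3 with 1 array left out: 3 when WT ThPOK+ replicate 1 was omitted, 2 for WT CD8a+ replicate 2, 1 for WT CD8a+ replicate 1 and 0 for any other array. The counts of genes called over all genes were 60 and 6, against 4 and 1 with no replicate block, 29 and 5 with the replicate number alone, 0 and 0 with 8 arrays, 3 and 3 within replicate 1, 0 and 0 within replicate 2, 10 and 0 without the 3 arrays, 137 and 44 with no background correction, 93 and 26 with an offset of 50, 80 and 31 with median scaling, and 2 to 78 and 0 to 14 with 1 array left out. For TR against WT 0 genes were called, against 1 with hosts exchanged, 8 with the replicate block as well, and 13 without WT CD8a+ replicate 1. The causes were not tested. In the other 3 comparisons 0 members were called under every alternative run.

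No difference that was called changed direction under any alternative. Reversals concerned differences that were not called. Srgn in CD8a+ against ThPOK+ cells was -0.0286 within replicate 1, -0.0193 without the 3 arrays and -0.0168 to 0.0346 with 1 array left out, and in CD8a- against ThPOK+ cells it was 0.0211 within replicate 2 and 0.0501 with median scaling. Between CD8a+ and CD8a- cells, Tnfsf10 was -0.17 within replicate 1 and Fasl 0.11 within replicate 2, and with 1 array left out Fasl ran from -0.25 to 0.0382 and Prf1 from -0.0816 to 0.0068. For TR against WT with the hosts of replicate 1 exchanged, with or without the replicate block, Gzmk was 0.32 and Prf1 -0.12, and with 1 array left out Nkg7 ran from -0.12 to 0.17 and Srgn from -0.0171 to 0.0443. For the host difference in CD8a+ minus ThPOK+ cells with hosts exchanged, Gzmk was -0.30, Prf1 -0.0666 and Fasl -0.36, and with 1 array left out Gzmk ran from -0.10 to 1.23, Nkg7 from -0.44 to 0.43, Fasl from -0.26 to 0.83 and Tnfsf10 from -1.28 to 0.51.

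Median scaling moved the median of all genes in TR against WT to 0.15, so host differences under it are relative to that shift. A fit of the deposited log2 table was not run, since its rows share no probe column with the intensity table. The detection limit bears on the dim members: Gzmc and Gzmm, and Gzmb, Tnfsf10 and the dimmer Prf1 probe in ThPOK+ cells, lay near background. So did Gzmk on the replicate 2 arrays of ThPOK+ cells.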
